A study of Mus musculus with 6 samples.

Results

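The comparison described here is moderate chronic hypoxia, 4% pO2, against 20% pO2, in mouse primary myoblasts. Myoblasts are the dividing progeny of muscle stem cells (satellite cells), and these came from satellite cells sorted by flow cytometry and carried the genotype Pax7-ZSGreen, as did the cells of every other condition. Cultures were kept for more than 2 weeks at their pO2 and were then given 1 µM PT2385, an inhibitor of HIF-2α, or 0.1% DMSO as vehicle for 48 h in growth medium. Of the 6 libraries, 4 form the comparison as 2 pairs that share no library, namely 4% with PT2385 against 20% with PT2385, and 4% with vehicle against 20% with vehicle. The other 2 libraries, from 1% pO2 with PT2385 and with vehicle, are used only to place the 4% levels. RNA of several cultures was pooled for each condition and gave 1 library, so no spread between replicates can be measured, no test was made, and a PT2385 library is not a replicate of a vehicle library. The deposited values were read as FPKM, that is, fragments scaled to transcript length and to library size. Genes with a mean of at least 1 FPKM over the 6 libraries, 11967 of 54834, were called measured, and 10853 of them are protein-coding. A difference is log2(FPKM + 1) at 4% minus that at 20% pO2, a scale on which low genes show less than their full fold change, and 2-fold means a difference of at least 1 in size. A gene was called shared where it passed 2-fold in the same direction in both pairs, and where a single difference is given for a gene it is the smaller of its 2.

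Cells answer low oxygen through the hypoxia-inducible factors. Prolyl hydroxylases (the EGLN enzymes) use oxygen to mark HIF-1α and HIF-2α for destruction by the VHL complex, and at low oxygen the α subunits persist, pair with ARNT, and bind the hypoxia response element upstream of genes for glucose uptake, glycolysis, lactate export, red cell and vessel growth. In muscle stem cells both α subunits are known to act on self-renewal and on the choice between division and differentiation. Sterol synthesis is under a separate sterol-dependent control by SREBP-2, which binds sterol response elements.

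Upstream sequences of 5 glycolytic and HIF target genes and of 1 sterol gene that were at least 2-fold higher at 4% pO2 in both pairs are shown because control of these genes by HIF or by SREBP-2 is well established. They are from RefSeq (build GRCm38.p6), are given 5′ to 3′ on the strand of the gene, and lie wholly before the annotated start that was used. Pdk1 and Ldha have 2 starts there, and the first listed was used. In the GENCODE M21 annotation Ldha begins further upstream, at chr7:46841475, so its stretch lies inside that gene span. Capitals mark ACGTG or GCGTG, the 2 forms of the hypoxia response element core, on either strand (as CACGT or CACGC when on the other strand) and, in Hmgcs1, the sterol response element TCACNCCAC. A run of CACGTG holds overlapping matches on both strands. Each stretch was set by hand at its own distance from the start, so a match in every stretch shown is not a result. Pdk1, a kinase that holds pyruvate back from mitochondrial oxidation, is shown at chr2:71873104-71873223 on the plus strand, Ldha, which makes lactate, at chr7:46845656-46845775 on the plus strand, Bnip3, a mitophagy receptor, at chr7:138909522-138909641 on the minus strand, Pgk1, a glycolytic kinase, at chrX:106186930-106187049 on the plus strand, Adm, the vasodilator peptide adrenomedullin, at chr7:110627537-110627656 on the plus strand, and Hmgcs1, an early enzyme of sterol synthesis, at chr13:119690191-119690310 on the plus strand.
Pdk1: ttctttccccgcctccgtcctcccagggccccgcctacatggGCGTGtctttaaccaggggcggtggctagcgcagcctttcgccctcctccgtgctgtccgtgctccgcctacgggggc
Ldha: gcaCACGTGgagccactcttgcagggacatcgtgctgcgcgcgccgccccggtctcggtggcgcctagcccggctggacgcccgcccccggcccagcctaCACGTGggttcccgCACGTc
Bnip3: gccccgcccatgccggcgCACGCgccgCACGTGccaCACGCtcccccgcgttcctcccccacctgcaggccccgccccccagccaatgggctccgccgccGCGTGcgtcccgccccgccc
Pgk1: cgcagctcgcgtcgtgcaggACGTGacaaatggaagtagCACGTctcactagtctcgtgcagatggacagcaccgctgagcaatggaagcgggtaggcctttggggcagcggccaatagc
Adm: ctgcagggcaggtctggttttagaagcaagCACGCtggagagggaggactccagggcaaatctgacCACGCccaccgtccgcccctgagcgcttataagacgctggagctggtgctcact
Hmgcs1: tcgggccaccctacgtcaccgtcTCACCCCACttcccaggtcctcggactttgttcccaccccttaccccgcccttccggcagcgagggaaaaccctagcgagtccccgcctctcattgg
These letters are common. Within 250 bases before the start, ACGTG on either strand was held by 16.6% of all 32851 promoters in the table, GCGTG by 28.2% and TCACNCCAC by 1.05%. Of the 10846 measured protein-coding symbols, 8623 had a promoter in the table, and 26.01% of these genes held ACGTG at 1 or more of their starts. The share was 27.3% of the 444 shared higher genes with a promoter and 21.3% of the 174 shared lower genes. For GCGTG it was 47.3% of the shared higher and 47.7% of the shared lower genes, against 52.5% of measured genes, and for either form 60.4% and 58.6%, against 64.1%. Among known HIF targets outside glycolysis ACGTG was held by 17 of 31 genes, in glycolysis 11 of 25 and in cholesterol synthesis 4 of 17, and TCACNCCAC was held by 1 of those 17, Hmgcs1. A match describes letters only, and binding was not measured in these files.

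Genes were more often higher than lower at 4% pO2. In the PT2385 pair 867 measured genes were at least 2-fold higher (7.24%) and 352 lower (2.94%), and in the vehicle pair 855 were higher (7.14%) and 353 lower (2.95%). Both pairs shared 673 genes at least 2-fold higher (5.62% of measured genes) and 253 at least 2-fold lower (2.11%), and 13 genes passed 2-fold in opposite directions (0.109%). At any size, 44.1% of measured genes were higher in both pairs and 39.3% were lower in both. The list counts below are to be read beside these shares and, past 2-fold, beside 5.62% and 2.11%. Of protein-coding genes, 609 were shared higher (5.61%) and 224 shared lower (2.06%). Among the shared higher genes, 187 passed 4-fold in both pairs and 57 passed 8-fold, and among the shared lower genes 66 and 23 did. Around the limit, Arap1 (1.004) and Tcim (1.004) lay just inside and Stac2 (0.998) and Ralgapb (0.996) just outside, and on the lower side Fam149a (−1.006) lay inside and Tspan9 (−0.998) and Fos (−0.997) outside. Across the 10853 protein-coding genes the differences of the pairs were alike, with Pearson's r of 0.921 and Spearman's rho of 0.867, and 84.6% had the same sign. Over all 11967 measured genes r was 0.779 and rho 0.834. Genes are not independent replicates, and these values describe the 4 libraries. From the step between low values, which correspond to whole fragments, each of the 6 held between 18700000 and 21900000 fragments, with the lowest in 4% pO2 with PT2385, and values well under 1 FPKM rest on few fragments.

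**Figure D1:**
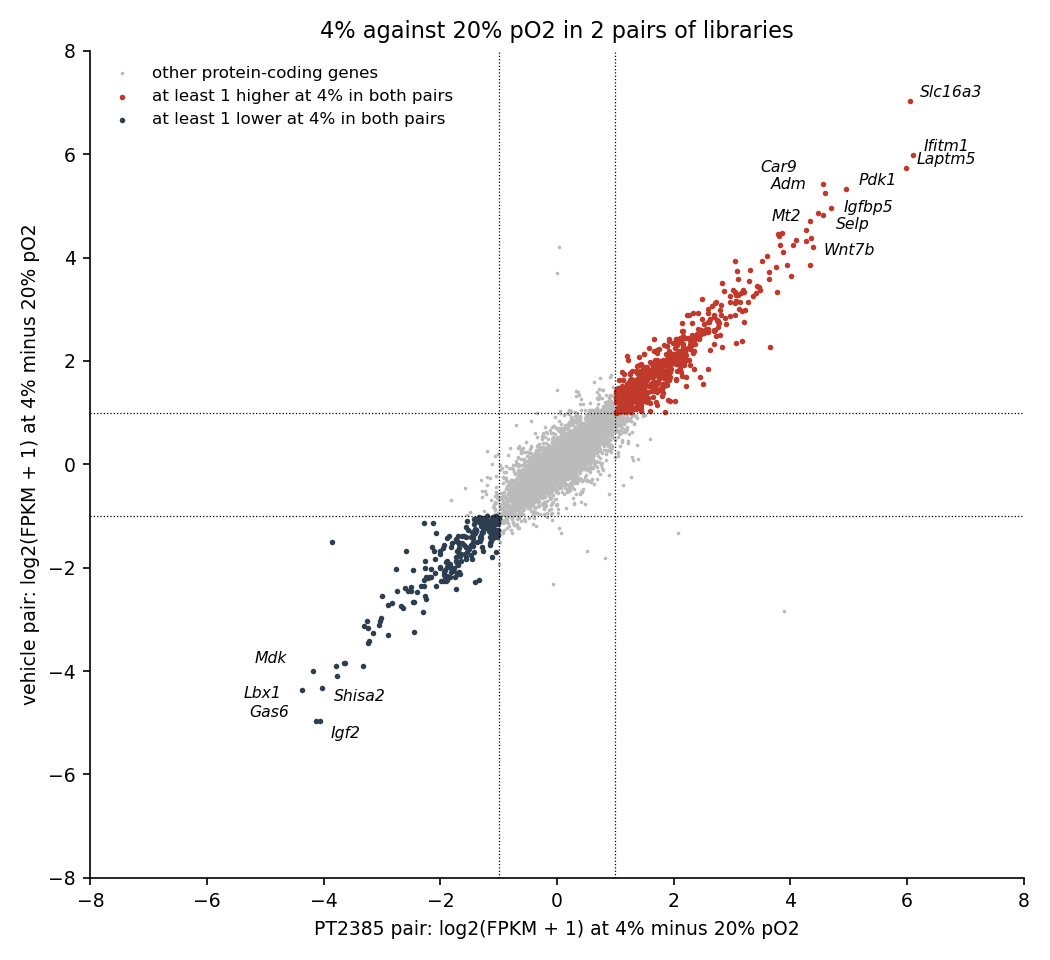
Each point is a measured protein-coding gene, with its log2(FPKM + 1) difference at 4% minus 20% pO2 in the PT2385 pair on the horizontal axis and in the vehicle pair on the vertical axis. Red points are the 609 shared higher genes and dark points the 224 shared lower genes, dotted lines mark a difference of 1 in either direction, and 1 gene (Hnrnpa2b1, listed at 0 in 1 normoxic library) lies outside the axes.

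Of the oxygen-sensing genes, a pair of prolyl hydroxylase genes stood out. Egln3, a prolyl hydroxylase gene that is itself a HIF target, stood at 222 FPKM at 4% against 51.4 FPKM at 20% pO2 with PT2385, and 220.2 against 51.9 FPKM with vehicle (differences 2.09 with PT2385 and 2.06 with vehicle). Egln1, the main prolyl hydroxylase of normoxia, stood at 77.5 FPKM at 4% against 21.8 FPKM at 20% pO2 with PT2385, and 79.2 against 21.4 FPKM with vehicle. Both 4% libraries lay well above both 20% libraries for each gene. They were the 2 shared higher genes of 11 measured, against a background of 5.62%, and none was shared lower. The third hydroxylase, Egln2, had 25.9 against 25.03 FPKM with PT2385 and 23.4 against 23.4 FPKM with vehicle, a small difference beside those of its relatives. Hif1a itself, whose protein is controlled by stability, had 54.2 against 43.8 FPKM with PT2385 and 57.2 against 47.1 FPKM with vehicle, differences of 0.30 with PT2385 and 0.27 with vehicle. Its partner Arnt had differences of −0.05 with PT2385 and −0.09 with vehicle, Arnt2 0.13 with PT2385 and 0.28 with vehicle, the asparaginyl hydroxylase gene Hif1an 0.07 with PT2385 and 0.07 with vehicle, and Vhl 0.17 with PT2385 and 0.13 with vehicle. The coactivator genes Ep300 and Crebbp and their HIF-induced competitor Cited2 were higher at 4% by less than 2-fold (smaller differences 0.55, 0.45 and 0.58). Transcripts of Epas1, which encodes the HIF-2α that PT2385 binds, were at most 0.273 FPKM in any library, and Hif3a was lower still, so both fell below the filter.

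Genes of lactate export, acid handling and pyruvate use held the gene with the largest shared difference. Slc16a3, the monocarboxylate transporter that exports lactate, stood at 361 FPKM at 4% against 4.497 FPKM at 20% pO2 with PT2385, and 354 against 1.72 FPKM with vehicle, a difference of 6.04 with PT2385 and 7.03 with vehicle. In FPKM this was 80.3-fold with PT2385 and 206-fold with vehicle, and the pairs differed mostly through the normoxic libraries. Car9, a cell-surface carbonic anhydrase, had 58.6 against 1.54 FPKM with PT2385 and 67.8 against 0.606 FPKM with vehicle. Pdk1 had 89.8 against 1.92 FPKM with PT2385 and 101 against 1.54 FPKM with vehicle. Both were low at 20% pO2 and well expressed at 4%. Ldha, already abundant at 20%, had 2408 against 822 FPKM with PT2385 and 2343 against 758 FPKM with vehicle. Pdk4, another pyruvate dehydrogenase kinase, was the fifth of 24 measured members that were shared higher, at 42.2 against 18.98 FPKM with PT2385 and 55.5 against 23.2 FPKM with vehicle, and none was shared lower. The subunits of pyruvate dehydrogenase, the enzyme these kinases inhibit, had lower values at 4% by less than 2-fold (smaller differences −0.18 for Pdha1, −0.07 for Pdhb and −0.49 for Dlat).

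Glucose uptake and glycolysis moved as a group. Of 26 measured genes, 22 were higher in both pairs at any size (44.1% of all measured genes were), 13 were shared higher and 1 was shared lower. The list's median difference was 1.00 in the PT2385 pair and 1.05 in the vehicle pair, against 0.02 over all measured genes in each pair. The glucose transporter Slc2a1 stood at 189 FPKM at 4% against 33.2 FPKM at 20% pO2 with PT2385, and 178 against 24.5 FPKM with vehicle. Pfkfb3, which makes the activator of phosphofructokinase, had 29.5 against 2.900 FPKM with PT2385 and 33.5 against 2.599 FPKM with vehicle. Phosphofructokinase itself parted by isoform. Pfkp had 47.4 against 7.43 FPKM with PT2385 and 54.7 against 7.54 FPKM with vehicle and Pfkl was higher by 2.43, while the muscle form Pfkm had differences of −0.04 with PT2385 and 0.25 with vehicle. Pgm1, which links glycogen to glycolysis, had 105 against 11.6 FPKM with PT2385 and 107 against 11.1 FPKM with vehicle. Aldoc, the brain-type aldolase, had 7.43 against 0.4100 FPKM with PT2385 and 8.43 against 0.577 FPKM with vehicle, so the largest relative differences in the list were not all in its abundant members. Abundant Pgk1 had 1076 against 244 FPKM with PT2385 and 1067 against 233 FPKM with vehicle, and Gapdh and Pkm, likewise abundant, were higher by 0.87 and 0.88, just under the limit. The exceptions were Eno3, the muscle enolase, which was lower (differences −0.45 with PT2385 and −0.30 with vehicle), and Bpgm, which makes 2,3-bisphosphoglycerate and was the shared lower member, at 7.95 against 35.2 FPKM with PT2385 and 10.4 against 37.1 FPKM with vehicle.

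Known HIF targets outside glycolysis showed the same direction. Of 44 measured genes, 42 were higher in both pairs and 25 were shared higher, none was lower in both, and the median was 1.42 in the PT2385 pair and 1.39 in the vehicle pair. Adm had 58.95 against 1.47 FPKM with PT2385 and 61.4 against 0.648 FPKM with vehicle, and Bnip3 had 298 against 16.5 FPKM with PT2385 and 319 against 14.8 FPKM with vehicle. Bhlhe40, a transcriptional repressor that also belongs to the circadian genes, had 34.01 against 1.42 FPKM with PT2385 and 35.5 against 0.637 FPKM with vehicle. In these genes, which were named for their large shared differences, both 4% libraries lay above both 20% libraries. Ak4, a mitochondrial adenylate kinase, had 34.9 against 1.56 FPKM with PT2385 and 35.6 against 0.7198 FPKM with vehicle. Vegfa, the vessel growth factor, had 262 against 109.5 FPKM with PT2385 and 248 against 96.1 FPKM with vehicle, a smaller difference from a higher normoxic level. At the other end lay Pam, an amidating enzyme (differences −0.20 with PT2385 and 0.00 with vehicle), the histone demethylase Kdm4c (0.05 with PT2385 and −0.10 with vehicle) and the transcription factor Klf10 (0.09 with PT2385 and 0.12 with vehicle). At 1% pO2 the list's median difference from 20% was 1.90 with PT2385 and 1.97 with vehicle, and 34 of the 44 genes were lower at 4% than at 1% in both treatments (40.1% of all measured genes were), so 4% was an intermediate level for most of these genes.

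The pairs were not equal in normoxia for these genes. At 20% pO2, 29 of the 44 HIF targets were higher with PT2385 than with vehicle (51.4% of all measured genes were), with a median difference of 0.08, and at 4% pO2 31 of the 44 were lower with PT2385 (49.4% were), with a median difference of −0.07. Among genes with large differences in this list or in the lactate list, Slc16a3 stood 2.62-fold, Car9 2.53-fold, Adm 2.27-fold and Bhlhe40 2.23-fold higher with PT2385 than with vehicle at 20% pO2 from low levels. For these genes the differences of the PT2385 pair were smaller than those of the vehicle pair. Other genes lay nearer to equal at 20% pO2, with ratios of 1.25 for Pdk1, 1.11 for Bnip3 and 0.991 for Egln3. With 1 library per condition, an effect of the drug and a difference between single libraries cannot be told apart. Between PT2385 and vehicle, 132 measured genes passed 2-fold in either direction at 4% pO2 (1.10%) and 97 at 20% pO2 (0.811%), against 1219 (10.2%) between 4% and 20% pO2 in the PT2385 pair and 1208 (10.1%) in the vehicle pair. Of protein-coding genes these were 27 at 4% (0.249%) and 16 at 20% (0.147%).

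**Figure D2:**
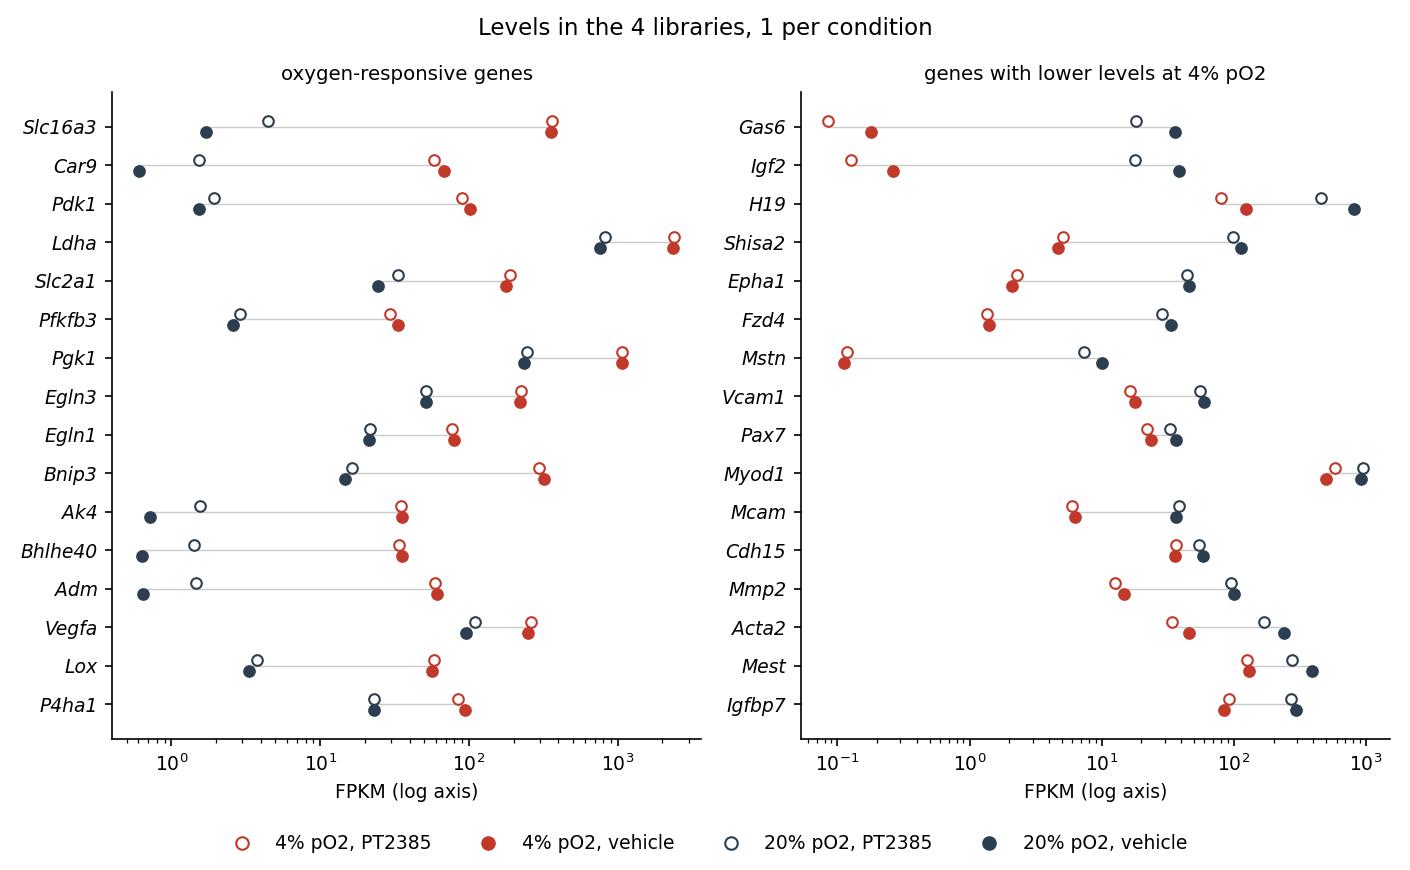
FPKM on a log axis in the 4 libraries, with open circles for PT2385, filled circles for vehicle, red for 4% and dark for 20% pO2. In each of the 16 genes on the left both 4% libraries lie above both 20% libraries, and in each of the 16 on the right both lie below.

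Most nuclear genes of the respiratory chain were lower, each by less than 2-fold. Of 73 nuclear genes for respiratory chain subunits, 61 were lower in both pairs (39.3% of all measured genes were) and 8 higher, and none was shared past 2-fold, with a median of −0.29 in the PT2385 pair and −0.29 in the vehicle pair. The shared differences of the subunits ran from −0.74 to 0.87. Their summed level was 12601 FPKM at 4% against 15237 at 20% pO2 with PT2385, and 12369.9 against 14731 with vehicle. Of 13 mitochondrially encoded genes 7 were lower in both pairs, among them mt-Cytb (2779.9 against 5353 FPKM with PT2385 and 2773 against 5439.7 FPKM with vehicle) and mt-Nd4 (787 against 1537 FPKM with PT2385 and 889 against 1603 FPKM with vehicle), while mt-Co2 was higher (125 against 81.5 FPKM with PT2385 and 102 against 76.6 FPKM with vehicle). Mitochondrial genes are cut from shared transcripts of both strands, and these values were not tied to a strand in the sources used here. Of 20 genes of the citric acid cycle 14 were lower in both pairs, and the 1 shared higher gene was Idh1, the cytosolic isocitrate dehydrogenase that makes NADPH (54.1 against 9.48 FPKM with PT2385 and 57.2 against 9.18 FPKM with vehicle). Cox7a1, a respiratory subunit isoform of muscle, had 17.3 against 1.18 FPKM with PT2385 and 16.6 against 0.801 FPKM with vehicle. Higd1a, a HIF-induced assembly factor, had 96.2 against 33.3 FPKM with PT2385 and 104 against 30.3 FPKM with vehicle, while the hypoxia isoforms Cox4i2 and Ndufa4l2 were below the filter. The mitophagy receptors Bnip3l (1.90) and Bnip3 (4.09) had the opposite direction from the subunits.

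Ribosome genes were lower by similarly small amounts. Of 78 cytosolic ribosomal protein genes, 73 were lower in both pairs with a median of −0.35 in the PT2385 pair and −0.32 in the vehicle pair, and 69 of the 78 stood lower at 4% than at both 20% and 1% pO2 in both treatments (23.2% of all measured genes did). Of 45 MYC targets and ribosome biogenesis genes, 35 were lower in both pairs (median −0.26 in the PT2385 pair and −0.21 in the vehicle pair), with 2 shared lower, Odc1, the rate-limiting enzyme of polyamine synthesis (631 against 1442 FPKM with PT2385 and 518 against 1227 FPKM with vehicle), and Rcl1, a factor of ribosomal RNA processing (17.9 against 44.4 FPKM with PT2385 and 19.1 against 42.2 FPKM with vehicle). Myc itself was higher, at 123 against 78.5 FPKM with PT2385 and 111 against 66.9 FPKM with vehicle. Cell cycle genes moved less, with 26 of 44 lower in both pairs and a median of −0.13 in the PT2385 pair and −0.10 in the vehicle pair, and the 1 shared lower member was Cdkn2a, the locus of the cell cycle inhibitors p16 and p19Arf, which was listed at 0 in both 4% libraries against 8.38 FPKM with PT2385 and 9.75 FPKM with vehicle at 20% pO2.

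**Figure D3:**
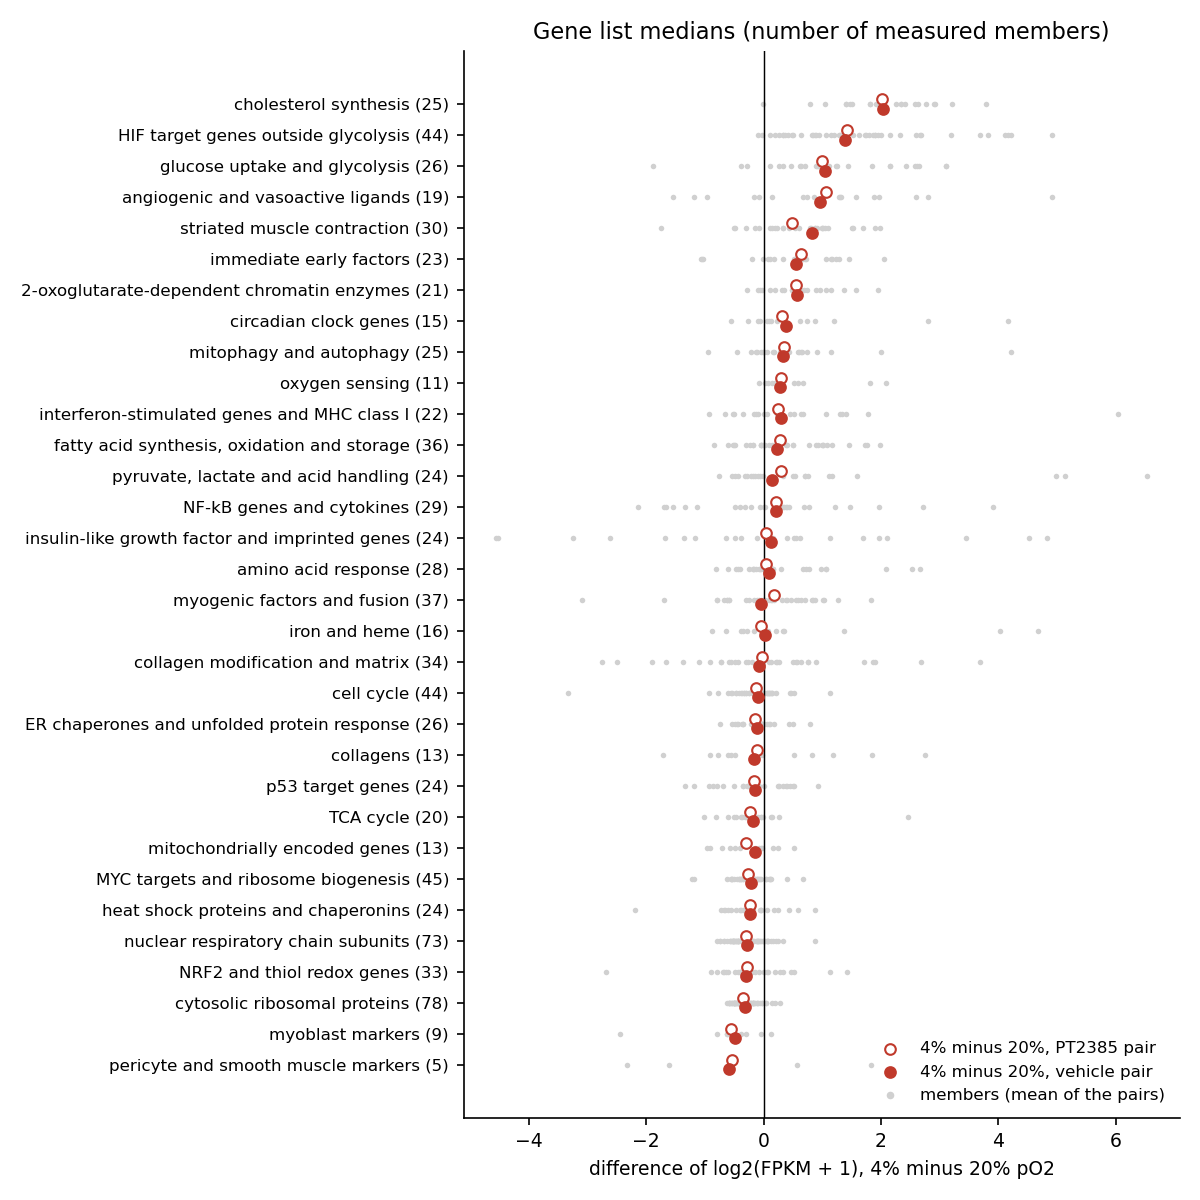
Median difference of each gene list with at least 5 measured members, as log2(FPKM + 1) at 4% minus 20% pO2, with open circles for the PT2385 pair, filled circles for the vehicle pair and grey points for the members (mean of the pairs). Cholesterol synthesis lies highest, near 2 in both pairs, and the medians of the pairs lie close together for most lists.

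Among lists of 5 or more measured genes, cholesterol synthesis had the highest median. Of 25 measured genes, 24 were higher in both pairs and 23 were shared higher, with a median of 2.01 in the PT2385 pair and 2.04 in the vehicle pair. Hmgcs1 stood at 112 FPKM at 4% against 18.3 FPKM at 20% pO2 with PT2385, and 114 against 17.7 FPKM with vehicle. Idi1, an isomerase of isoprenoid building blocks, had 83.8 against 7.78 FPKM with PT2385 and 95.5 against 9.998 FPKM with vehicle. Msmo1, a sterol demethylase that needs oxygen, had 103 against 12.3 FPKM with PT2385 and 104 against 13.4 FPKM with vehicle. In these genes the PT2385 and vehicle libraries of a level differed far less than the levels did. Sqle, the oxygen-using squalene epoxidase, was higher by 2.31. Srebf2, the gene of SREBP-2, was higher by 1.43. Tm7sf2 lay under the limit (0.76), and Ebp, a sterol isomerase, was the member without a common direction, with 18.7 against 18.02 FPKM with PT2385 and 15.6 against 16.3 FPKM with vehicle.

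This list set 4% pO2 apart from 1% pO2. Its median difference between 1% and 20% was 0.86 with PT2385 and 0.71 with vehicle, and all 25 genes stood higher at 4% than at 1% pO2 in both treatments (41.3% of all measured genes did). Hmgcs1, for one, had 42.3 FPKM with PT2385 and 35.2 FPKM with vehicle at 1% pO2. In both treatments 17 of the 25 were at least 2-fold above both other levels, where 1.19% of measured genes were. The 4% and 1% differences from 20% share the normoxic libraries, so the values are given side by side and not compared further.

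Fatty acid genes were less uniform, with 23 of 36 higher in both pairs and 5 shared higher (44.1% and 5.62% of all measured genes were). These were the desaturases Fads2, Scd2 and Scd1, the adipogenic factor Pparg, and Hilpda, an inhibitor of lipolysis that is a HIF target. Fads2 had 75.05 against 18.6 FPKM with PT2385 and 71.5 against 17.2 FPKM with vehicle, Scd2 was higher by 1.70 and Scd1 by 1.41. Hilpda had 41.1 against 12.2 FPKM with PT2385 and 36.6 against 9.86 FPKM with vehicle. At 1% pO2 these genes parted, since Fads2 had 25.3 FPKM with PT2385 and 23.4 FPKM with vehicle, below its 4% level, and Hilpda had 69.6 FPKM with PT2385 and 65.3 FPKM with vehicle, above it.

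**Figure D4:**
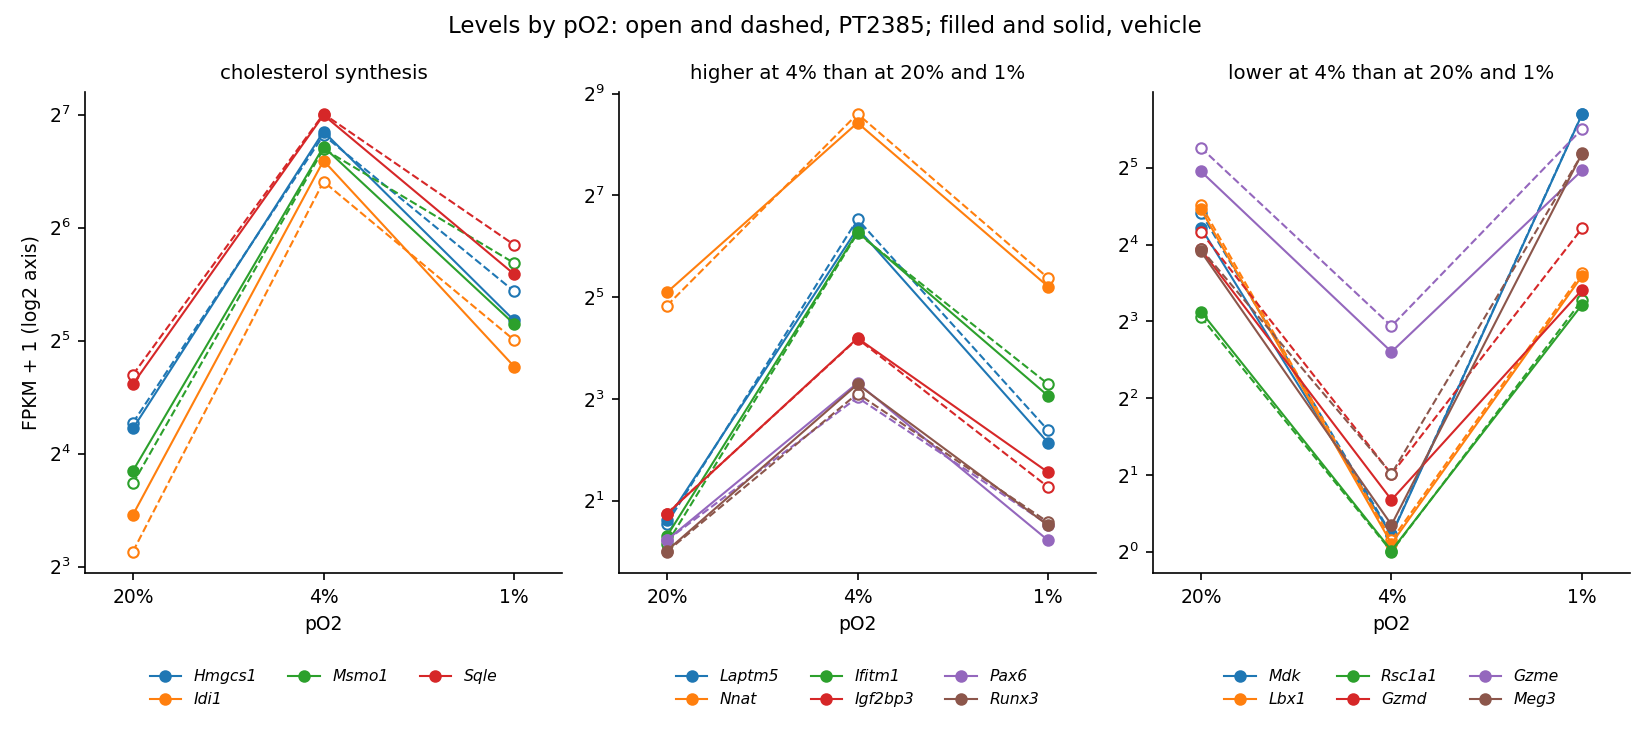
FPKM + 1 on a log2 axis at 20%, 4% and 1% pO2, with dashed lines and open circles for PT2385 and solid lines and filled circles for vehicle, 1 library per point. The genes of the left and middle panels peak at 4% pO2, and those of the right panel are lowest there.

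Myoblast identity genes were lower at 4% pO2 and still well expressed. Of 9 measured myoblast markers 8 were lower in both pairs, with a median of −0.55 in the PT2385 pair and −0.49 in the vehicle pair. Pax7, the satellite cell factor, stood at 22.1 FPKM at 4% against 33.1 FPKM at 20% pO2 with PT2385, and 23.5 against 36.3 FPKM with vehicle. Myod1, the myogenic determination factor, had 584 against 951 FPKM with PT2385 and 501 against 921 FPKM with vehicle. Cdh15, the muscle cadherin, had a difference of −0.55. In each case both 4% libraries lay below both 20% libraries. Mcam, an adhesion molecule of myogenic progenitors, was the marker that passed 2-fold in both pairs, with 5.96 against 38.5 FPKM with PT2385 and 6.27 against 36.4 FPKM with vehicle. Des, desmin (−0.29), and Chrna1, a subunit of the acetylcholine receptor (−0.31), differed less. Myf5 was at or near 0 in every library, with at most 0.481 FPKM, so this defining marker was all but absent. In bulk RNA, fewer cells of a type and less RNA per cell cannot be told apart.

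Within the list of myogenic factors and fusion genes, the largest shared difference was that of Mstn, the secreted inhibitor of muscle growth, at 0.118 FPKM at 4% against 7.31 FPKM at 20% pO2 with PT2385, and 0.112 against 9.99 FPKM with vehicle. Vcam1, an adhesion molecule of satellite cells, had 16.3 against 55.98 FPKM with PT2385 and 17.8 against 59.1 FPKM with vehicle. Both genes were lower in both 4% libraries. Notch3, a Notch receptor, was higher, with 8.28 against 1.26 FPKM with PT2385 and 8.57 against 2.101 FPKM with vehicle. Met, the hepatocyte growth factor receptor, was higher by 1.16. Lbx1, a homeobox factor of migrating muscle precursors, had 0.108 against 21.9 FPKM with PT2385 and 0.0739 against 21.01 FPKM with vehicle, the largest shared lower difference of the ranked genes. Over 37 measured factors and fusion genes 18 were higher and 14 lower in both pairs, near the shares over all measured genes (44.1% and 39.3%). Past 2-fold, 2 were shared higher and 2 shared lower (5.62% and 2.11% of all measured genes were).

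Genes of striated muscle contraction were mostly higher at 4% pO2, while their summed level hardly differed. Of 30 measured genes, 23 were higher in both pairs and 5 were shared higher, with a median of 0.49 in the PT2385 pair and 0.83 in the vehicle pair. The mean of these medians, 0.66, was 0.14 over members with a mean of at least 5 FPKM and 0.22 with no filter. The summed level, mostly from abundant genes such as Vim and Tpm1, was 4091 FPKM at 4% against 4124 FPKM at 20% pO2 with PT2385, and 4142 against 4042 FPKM with vehicle. Acta1, skeletal α-actin, stood at 20.9 FPKM at 4% against 7.07 FPKM at 20% pO2 with PT2385, and 40.2 against 9.71 FPKM with vehicle, and Myh3, the embryonic myosin heavy chain, had 7.07 against 1.21 FPKM with PT2385 and 12.6 against 2.600 FPKM with vehicle. The vehicle library held the higher level of both genes at 4% pO2. Dmd, dystrophin, had 6.01 against 0.6204 FPKM with PT2385 and 5.89 against 0.882 FPKM with vehicle, and Ttn, titin, was higher by 1.25. Xirp1, an actin-binding muscle protein, had 2.03 against 0.162 FPKM with PT2385 and 2.75 against 0.178 FPKM with vehicle. With a mean of 1.15 FPKM, Xirp1 passed the filter only through the 4% libraries, so its place among the shared higher genes depends on them. Nebl, an actin-binding Z-disc protein, was the shared lower member, with 11.8 against 48.1 FPKM with PT2385 and 14.7 against 45.2 FPKM with vehicle. Within each pO2 the PT2385 library was the lower for most of them (24 of 30 at 4%, where 49.4% of all measured genes were, and 21 of 30 at 20%, where 48.2% were), and 23 of the 53 listed genes fell below the filter. Myog, the factor of terminal differentiation, had 14.3 against 8.56 FPKM with PT2385 and 16.8 against 17.4 FPKM with vehicle, so its order at 4% and 20% was not the same in the pairs.

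Most listed markers of other cell types were at or near 0, but some were well expressed. Of 16 leukocyte markers 3 were measured, and 8, among them the defining Ptprc, Itgam, Adgre1 and Tyrobp, were listed at 0 in all 4 libraries. Laptm5, a lysosomal membrane protein best known from blood cells, was nonetheless one of the highest shared genes, with 91.5 against 0.465 FPKM with PT2385 and 80.7 against 0.535 FPKM with vehicle. At 4% pO2 it made up most of that list's summed level, which was 104.7 FPKM at 4% against 6.38 FPKM at 20% pO2 with PT2385, and 95.5 against 6.12 FPKM with vehicle. Cd68, a lysosomal protein of macrophages, was higher by 1.53. Of 10 endothelial markers 1 was measured, of 12 fibroblast markers 4, and of 10 adipocyte markers 3. Of the 4 measured fibroblast markers, 3 were higher and 1 was lower in both pairs. Their median difference was 0.57 with PT2385 and 0.74 with vehicle, and Gsn was shared higher (1.49). The summed level of the 12 listed fibroblast markers nonetheless went the other way. It was 104.9 FPKM at 4% against 131.3 FPKM at 20% pO2 with PT2385, and 108.1 against 132.7 FPKM with vehicle. Of 10 pericyte and smooth muscle markers 5 were measured, and 2 were higher and 3 lower in both pairs. Acta2, smooth muscle α-actin, was lower with 33.97 against 169 FPKM with PT2385 and 46.1 against 239.8 FPKM with vehicle. Tagln, transgelin, had a difference of −1.54, while Notch3, also on this list, was higher by 1.63. Of the neural markers, the neuronal tubulin gene Tubb3 was higher by 2.48 and Erbb3, a neuregulin receptor, had a difference of −1.69, while Sox10 was listed at 0. The part of other cell types in these results was not tested.

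Insulin-like growth factor (IGF) and imprinted genes held some of the largest differences in both directions. Of 24 measured genes 6 were shared higher and 7 shared lower. Igf2, the embryonic growth factor, stood at 0.127 FPKM at 4% against 17.9 FPKM at 20% pO2 with PT2385, and 0.263 against 38.5 FPKM with vehicle. H19, the noncoding RNA of the same imprinted domain, had 79.7 against 459 FPKM with PT2385 and 125 against 819 FPKM with vehicle. Both were lower with PT2385 than with vehicle at either pO2. Igfbp5, which binds IGFs outside the cell, was higher, at 269 against 9.43 FPKM with PT2385 and 214 against 5.88 FPKM with vehicle. Igfbp2, of the same family, had 193 against 8.62 FPKM with PT2385 and 145 against 4.598 FPKM with vehicle, and Igfbp7 went the other way with a difference of −1.57. Genes of the Dlk1 and Meg3 domain parted. Dlk1, a membrane protein related to the Notch ligands, had 40.6 against 7.62 FPKM with PT2385 and 31.7 against 7.600 FPKM with vehicle. The noncoding Meg3 had 1.02 against 14.4 FPKM with PT2385 and 0.273 against 14.04 FPKM with vehicle. Both are imprinted, as are Mest (−1.14) and Plagl1 (−1.17), which were lower. Nnat, an imprinted gene of a small membrane protein, was higher, with 388 against 27.5 FPKM with PT2385 and 343 against 33.1 FPKM with vehicle. The mRNA-binding Igf2bp3 had 17.2 against 0.679 FPKM with PT2385 and 17.3 against 0.673 FPKM with vehicle. Gas6, the ligand of the TAM receptors, stood at 0.0842 FPKM at 4% against 18.1 FPKM at 20% pO2 with PT2385, and 0.1798 against 35.9 FPKM with vehicle. Its receptor gene Axl differed by −0.07 only, so ligand and receptor did not move together.

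Secreted and matrix genes were mixed. Of 19 measured angiogenic and vasoactive genes 9 were shared higher and 2 shared lower, and the median was 1.06 in the PT2385 pair and 0.95 in the vehicle pair. Apln, the vasoactive peptide apelin, had 25.9 against 3.48 FPKM with PT2385 and 31.4 against 4.28 FPKM with vehicle. Thbs2, the antiangiogenic thrombospondin, had 19.2 against 2.12 FPKM with PT2385 and 19.2 against 1.72 FPKM with vehicle, so genes of opposite known roles were higher together. The chemokine Cxcl12 was lower, with 13.1 against 44.6 FPKM with PT2385 and 18.5 against 49.8 FPKM with vehicle, while its scavenger receptor gene Ackr3 was higher, with 53.9 against 13.9 FPKM with PT2385 and 50.2 against 11.5 FPKM with vehicle. Angptl4, a lipase inhibitor, was higher by 1.76, and Edn1, endothelin, had a difference of −1.02. Ace, angiotensin-converting enzyme, had 0.689 against 0.341 FPKM with PT2385 and 1.44 against 0.485 FPKM with vehicle and a mean under 1 FPKM.

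Of 34 measured genes of collagen modification and matrix, 16 were higher and 16 lower in both pairs (44.1% and 39.3% of all measured genes were). Past 2-fold, 5 were shared higher and 6 shared lower (5.62% and 2.11% were). The median was −0.02 in the PT2385 pair and −0.07 in the vehicle pair. Lox, lysyl oxidase, was higher, with 58.4 against 3.78 FPKM with PT2385 and 56.2 against 3.34 FPKM with vehicle. P4ha2, a collagen prolyl 4-hydroxylase, had 45.8 against 6.66 FPKM with PT2385 and 49.3 against 6.49 FPKM with vehicle, and P4ha1 and Loxl2 were higher by 1.83 and 1.71. The gelatinase Mmp2 was lower, with 12.6 against 95.9 FPKM with PT2385 and 14.9 against 101 FPKM with vehicle. Mgp, an inhibitor of calcification, had a difference of −2.40. Cyr61 (−1.89) and Ctgf (−1.52), matricellular genes known as targets of YAP, were lower as well. Of 13 measured collagens 3 were shared higher and 1 shared lower, with Col7a1, an anchoring fibril collagen, at 18.9 against 2.33 FPKM with PT2385 and 15.96 against 1.22 FPKM with vehicle and Col8a1 at a difference of −1.67. Another shared higher member, Col2a1, had a mean of 1.02 FPKM and at most 0.274 FPKM outside 4% pO2. It passed the filter only through the 4% libraries. The median of the collagens was −0.11 in the PT2385 pair and −0.16 in the vehicle pair, and the mean of these, −0.13, was −0.52 over members with a mean of at least 5 FPKM and −0.31 without chromosome 15.

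Several of the genes with the largest shared differences encode cell-surface or secreted proteins. Wnt7b, a Wnt ligand, had 48.7 against 1.43 FPKM with PT2385 and 45.1 against 1.22 FPKM with vehicle. The Wnt receptor Fzd4 had 1.36 against 28.6 FPKM with PT2385 and 1.41 against 33.4 FPKM with vehicle. A Wnt ligand and a Wnt receptor thus had opposite directions. Selp, P-selectin, had 166 against 6.04 FPKM with PT2385 and 161 against 4.704 FPKM with vehicle. Shisa2, of a family known for holding Frizzled and FGF receptors inside the cell, had 5.11 against 99.1 FPKM with PT2385 and 4.69 against 113 FPKM with vehicle. Cacng7, a channel regulatory subunit, had 0.3103 against 15.4 FPKM with PT2385 and 0.377 against 18.7 FPKM with vehicle. These were low in both libraries of 1 level and well expressed in both of the other. The ephrin receptor Epha1 had 2.29 against 44.4 FPKM with PT2385 and 2.11 against 45.8 FPKM with vehicle. The glypican Gpc4 and the microtubule-binding Clip3 had differences of −3.24 and −3.77.

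Metal and stress genes gave single large differences within lists that moved little. Mt1, a metallothionein that binds zinc and copper, had 373 against 25.6 FPKM with PT2385 and 339 against 16.9 FPKM with vehicle. Its paralog Mt2 had 223 against 9.14 FPKM with PT2385 and 199.6 against 5.86 FPKM with vehicle, and the 2 were the leading genes of an iron, heme and metal list whose median was near 0 (−0.04 in the PT2385 pair and 0.02 in the vehicle pair). Ddit4, a HIF- and stress-induced inhibitor of mTORC1, had 70.3 against 10.9 FPKM with PT2385 and 67.5 against 9.14 FPKM with vehicle. Vldlr, the very low-density lipoprotein receptor, was higher by 2.31. The amino acid response, to which these genes were assigned, had a median of 0.04 in the PT2385 pair and 0.10 in the vehicle pair. At 1% pO2 its median difference from 20% was 0.73 with PT2385 and 0.91 with vehicle. In both treatments 26 of its 28 genes were lower at 4% than at 1% (40.1% of all measured genes were). Likewise 20 of 24 p53 targets were lower at 4% than at 1% in both treatments, beside the same 40.1%. Against 20% pO2 Zmat3 (−1.25) and Eda2r (−1.12) were shared lower. Of 33 NRF2 and thiol genes 22 were lower in both pairs, and Txnip, an inhibitor of thioredoxin, was higher (1.28). Hspb8, a small heat shock protein, was listed at 0 in both 4% libraries, against 3.59 FPKM with PT2385 and 3.52 FPKM with vehicle at 20% pO2.

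Signalling and immune genes also moved in both directions. Of 23 immediate early genes 18 were higher in both pairs and 6 shared higher, among them the transcription factors Egr3 (1.98) and Fosl1 (1.16), while the phosphatase gene Dusp1 (−1.01) and the nuclear receptor Nr4a2 (−1.03) were shared lower. Of 29 NF-kB genes and cytokines 5 were shared higher and 6 shared lower (5.62% and 2.11% of all measured genes were). Il33, an alarmin, had 18.6 against 0.277 FPKM with PT2385 and 19.6 against 0.414 FPKM with vehicle. The chemokine Ccl2 had 3.86 against 28.4 FPKM with PT2385 and 6.69 against 23.7 FPKM with vehicle. Il11, a cytokine of the interleukin 6 family, had 96.97 against 37.9 FPKM with PT2385 and 58.4 against 18.2 FPKM with vehicle, with the PT2385 library above the vehicle library at either pO2. Of 22 measured interferon-stimulated and histocompatibility genes 4 were shared higher and none lower, led by Ifitm1, an antiviral membrane protein, at 75.4 against 0.113 FPKM with PT2385 and 76.7 against 0.234 FPKM with vehicle. Its paralog Ifitm3, already expressed at 20%, was higher by 1.26, and H2-K1, a class I antigen gene, by 1.40.

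Of 21 measured chromatin enzymes that use oxygen and 2-oxoglutarate, 17 were higher in both pairs and 4 were shared higher. The histone demethylase Kdm3a had 40.9 against 8.62 FPKM with PT2385 and 39.6 against 10.8 FPKM with vehicle. Tet2, which oxidises 5-methylcytosine, had 13.2 against 2.79 FPKM with PT2385 and 9.74 against 3.51 FPKM with vehicle, and Tet1, of the same family, and the histone demethylase Kdm6b were higher by 1.28 and 1.03. Of 15 clock genes 3 were shared higher, the repressors Bhlhe40, Bhlhe41 (1.15) and Ciart, which had 18.4 against 2.21 FPKM with PT2385 and 21.1 against 1.75 FPKM with vehicle. The partners of the core activator differed in sign, with Arntl higher (0.55) and Clock lower (−0.17).

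At 4% pO2 some genes lay outside the range of the other 2 levels. In both treatments 143 measured genes were at least 2-fold above both 20% and 1% pO2 (1.19%) and 89 at least 2-fold below both (0.744%), of which 129 (1.19% of protein-coding genes) and 74 (0.682%) were protein-coding. Among the 5 highest were Laptm5, Nnat, Ifitm1 and Igf2bp3. Of these, Laptm5, Ifitm1 and Igf2bp3 reached the mean of 5 FPKM needed for the ranking only through the 4% libraries, where they are high. The filter behind the 143 genes likewise counts the 4% libraries, so a gene high at 4% alone can pass through them. Laptm5 had 4.21 FPKM with PT2385 and 3.399 FPKM with vehicle at 1% pO2, Nnat 40.5 FPKM with PT2385 and 35.97 FPKM with vehicle, Ifitm1 8.79 FPKM with PT2385 and 7.34 FPKM with vehicle and Igf2bp3 1.41 FPKM with PT2385 and 1.94 FPKM with vehicle, each below both of its 4% values. The 5 lowest were Mdk, Lbx1, Rsc1a1, Gzmd and Gzme. Mdk, the growth factor midkine, stood at 0.167 FPKM at 4% against 20.3 FPKM at 20% pO2 with PT2385, and 0.158 against 17.6 FPKM with vehicle, and at 1% pO2 it had 51.05 FPKM with PT2385 and 50.9 FPKM with vehicle. Rsc1a1 had 0 against 7.32 FPKM with PT2385 and 0.00948 against 7.74 FPKM with vehicle. It lies within Ddi2, so its values are uncertain. Gzmd (−3.16) and Gzme (−2.32) are granzyme genes of a family of near-identical copies and are uncertain for that reason. By a stricter description, 8 protein-coding genes were at most 0.2 FPKM in both 4% libraries and at least 5 FPKM in both 20% libraries, namely Lbx1, Mstn, Mdk, Gas6, Rxfp1, Islr, Rsc1a1 and Cdkn2a. The converse held for 6, Tmem45a, Pax6, Clec4d, Krt8, Slc14a1 and Runx3. Pax6, an eye and brain homeobox factor, had 7.16 against 0.168 FPKM with PT2385 and 8.94 against 0.169 FPKM with vehicle and at 1% pO2 0.444 FPKM with PT2385 and 0.164 FPKM with vehicle. Runx3, a lymphoid and neuronal transcription factor, had 7.61 FPKM with PT2385 and 8.76 FPKM with vehicle at 4%, was listed at 0 or near it in the 20% libraries, and had 0.492 FPKM with PT2385 and 0.428 FPKM with vehicle at 1% pO2. These 14 genes were picked out after their values were seen.

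Genes of chromosome 15 stood apart from the rest at 4% pO2. Over protein-coding genes with a mean of at least 5 FPKM, the median difference of the 358 genes on chromosome 15 was 0.32 with PT2385 and 0.37 with vehicle, while the medians of the other 18 autosomes and X lay between −0.08 and 0.02 with PT2385 and between −0.05 and 0.03 with vehicle. On chromosome 15, 269 of the 358 genes (75.1%) were higher in both pairs, against 36.4% to 45.3% on those other autosomes and X. Chromosome Y (80% of 5 genes) and the mitochondrial genome (23.1% of 13 genes) were left out of these ranges. Of the 358 genes, 36 were shared higher and 1 shared lower, where 5.61% and 2.06% of all measured protein-coding genes were. The median FPKM ratio was 1.27 with PT2385 and 1.304 with vehicle. In 7 stretches of about 51 genes along the chromosome, the first had medians of 0.01 with PT2385 and 0.07 with vehicle, and the others had medians from 0.19 to 0.56 with PT2385 and from 0.18 to 0.55 with vehicle. At 1% pO2 the chromosome's median difference from 20% was −0.10 with PT2385 and −0.03 with vehicle. DNA copy number was not measured. Members named above that lie on this chromosome are Col2a1, Ep300, Klf10, Krt8, Myc, Pfkm, Sqle, Srebf2 and Wnt7b. Without chromosome 15, a choice made after the data were seen, 618 genes were shared higher and 250 shared lower. Elsewhere, Cdkn2b, the neighbour of Cdkn2a, was also listed at 0 in both 4% libraries (against 2.05 FPKM with PT2385 and 2.05 FPKM with vehicle at 20% pO2) while Mtap, on the other side of Cdkn2a, had 114 against 172 FPKM with PT2385 and 115 against 178 FPKM with vehicle.

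**Figure D5:**
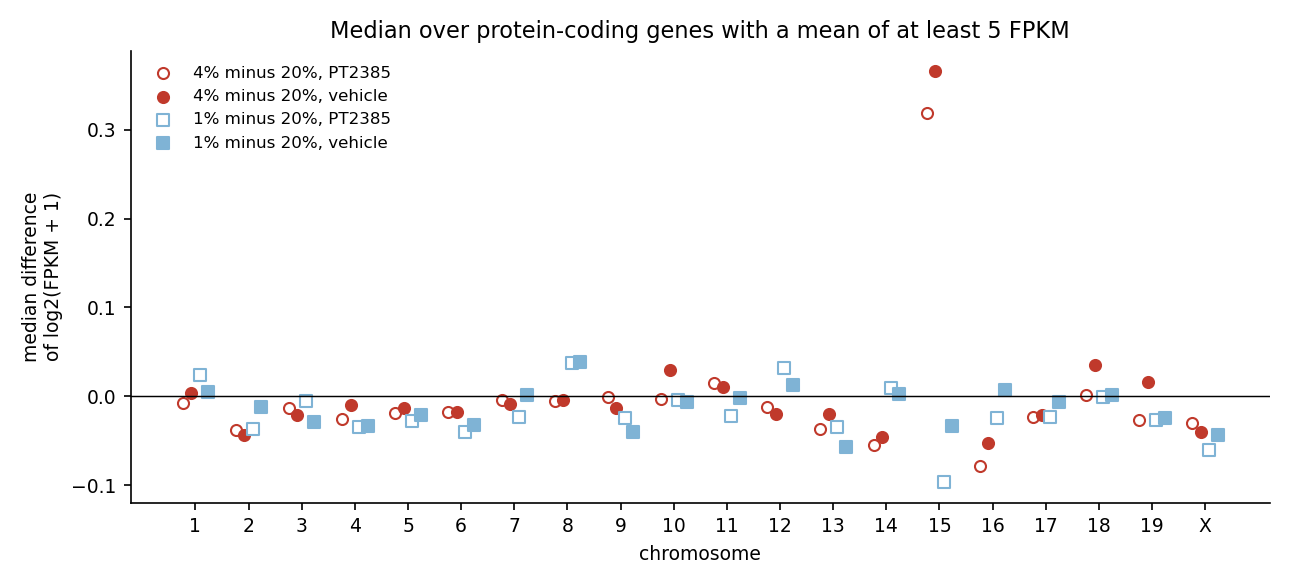
Median log2(FPKM + 1) difference of protein-coding genes with a mean of at least 5 FPKM on each chromosome, with circles for 4% minus 20% pO2, squares for 1% minus 20% pO2, open symbols for PT2385 and filled symbols for vehicle. The circles of chromosome 15 lie at 0.32 for PT2385 and 0.37 for vehicle, above those of every other chromosome shown.

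In some genes the pairs differed. Gpx3, a secreted glutathione peroxidase, stood at 2.59 FPKM at 4% against 50.9 FPKM at 20% pO2 with PT2385, and 18.6 against 54.8 FPKM with vehicle, lower in both pairs by unequal amounts, through the 4% PT2385 library. Selenop, a selenium carrier, had 6.19 against 6.53 FPKM with PT2385 and 1.75 against 12.6 FPKM with vehicle. The vehicle libraries held both the lowest of the 4 levels, at 4% pO2, and the highest, at 20% pO2. Slc10a7, a solute carrier, had 62.8 against 35.3 FPKM with PT2385 and 8.87 against 33.7 FPKM with vehicle, with opposite directions. The predicted gene Gm14295 (15.7 against 2.98 FPKM with PT2385 and 3.63 against 10.6 FPKM with vehicle) and the histone gene Hist1h2ap (55.2 against 54.2 FPKM with PT2385 and 34.8 against 83.3 FPKM with vehicle) have near-identical copies that reads cannot always be assigned to, and 1810049J17Rik was listed at 0 at 20% pO2 with PT2385. A value of exactly 0 may be a failed estimate, as for Hnrnpa2b1, a splicing factor listed at 0 at 20% pO2 with PT2385 and at 829 FPKM with vehicle, and 88 measured genes were listed at 0 in 1 library of a level beside at least 5 FPKM in the other. Without them, 672 genes were shared higher, 250 shared lower and 6 opposite. None of these differences between the pairs was tested, since each condition is 1 library.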

How the data were processed

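Primary mouse myoblasts gave 6 RNA-seq libraries, 1 per condition. The submitters' processing notes name HISAT2 2.1.0, SAMtools 1.3.1, Cufflinks and Cuffdiff 2.2.1 with build GRCm38 (mm10), and the study's supplementary methods name TopHat2, so the aligner behind the table is not settled. The deposited table holds 1 value per gene and library, whose unit it does not name. The values were taken as FPKM, normalized by the authors, since their low values are whole multiples of a step set by gene length in 91.3% to 93.7% of cases (within 0.15 of a whole fragment). FPKM per library cannot show a change in total RNA per cell.

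From these, log2(FPKM + 1) differences were computed with Python 3.11.15, numpy 2.4.6, scipy 1.17.1 and pandas 2.3.3. Genes needed a mean of at least 1 FPKM, and gene types and positions came from GENCODE M21, which held 54719 of 54834 identifiers. With 1 library per condition no test was made. The 38 gene lists, of 1092 genes, and the comparison itself were chosen with earlier results of these data known. Genes were named by rank among 8625 protein-coding genes with a mean of at least 5 FPKM (10 highest and 10 lowest shared differences, 5 each way for the gap between the pairs and for 4% against both other levels), as measured oxygen-sensing genes, and as up to 4 members each way past 2-fold in each other list. Some genes that the rule names are not reported here. Other named genes were chosen after their values were seen. Alternatives were the pseudocount, the filter, the scaling, the limit, protein-coding genes alone, each pair alone, and leaving out genes listed at 0 or on chromosome 15.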

Additional observations from a re-analysis of the deposited data

Results flagged for a closer look

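Of the genes named by rule and the gene lists, 6 genes and 2 lists had opposite signs in the PT2385 pair and the vehicle pair, and the values below are the PT2385 pair's difference minus the vehicle pair's. The difference was not tested for any of them, since each condition is 1 library. It was 3.40 for the predicted gene Gm14295 and 2.63 for the solute carrier gene Slc10a7, whose levels are given above. For the histone gene Hist1h2ap, which has near-identical copies, it was 1.26. For Gm10401, with 3.59 against 9.504 FPKM with PT2385 and 7.53 against 6.13 FPKM with vehicle, it was −1.45. For Il17rc, an interleukin 17 receptor subunit, with 8.39 against 15.4 FPKM with PT2385 and 9.898 against 7.71 FPKM with vehicle, it was −1.12. In Egln2, the prolyl hydroxylase gene whose levels hardly differed, it was 0.0487. The list of myogenic factors and fusion genes had medians of 0.18 in the PT2385 pair and −0.04 in the vehicle pair, 0.22 apart, and the iron and heme list had medians of −0.04 in the PT2385 pair and 0.02 in the vehicle pair, −0.0601 apart.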

How the results depend on the processing

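The shared counts, 673 higher and 253 lower, were 925 and 340 with a pseudocount of 0.1, 709 and 270 with no filter, 685 and 247 with median ratio scaling, and 719 and 230 with the libraries set to the same sum. They were 426 and 151 with a mean of at least 5 FPKM, and 1412 and 593 at a 1.5-fold limit. Genes passing the limit in opposite directions, 13 in all, numbered 20 with the pseudocount of 0.1, 8 with a mean of at least 5, 30 at the 1.5-fold limit, 2 among protein-coding genes and 6 without genes listed at 0. Genes at 4% outside the range of both other levels numbered 232 and, at the 1.5-fold limit, 631. Median ratio scaling kept all 673 shared higher and 247 of the 253 shared lower genes. With no filter the median (mean of the pairs) changed sign in 5 lists, to −0.000232804 for fibroblast and fibro-adipogenic markers (0.65 otherwise), 0.0183 for pericyte and smooth muscle markers (−0.56), −0.05 for IGF and imprinted genes (0.08), 0.07 for collagen modification and matrix (−0.05) and 0.00568 for iron and heme (−0.01). The IGF and collagen modification lists also changed sign with a mean of at least 5 FPKM (−0.12 and 0.06), and the iron and collagen modification lists with the same sum (0.04 and 0.006), as did iron and heme with median ratio scaling (0.00155). Of the 139 genes named by rule, 65 moved in value with the pseudocount of 0.1. No replicate block was fitted and no replicate left out, since each condition has 1 library and the labels give no replicate numbers. The libraries are paired by treatment alone. The depth, between 18700000 and 21900000 fragments, limits genes under 1 FPKM.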

Other observations

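Some genes named without values were near 0 at 1 level and well above it at the other. Krt8, a keratin of simple epithelia, had 8.203 FPKM with PT2385 and 9.14 FPKM with vehicle at 4% pO2, and was listed at 0 in both 20% libraries. Tmem45a, known as a HIF target, had 8.81 against 0.191 FPKM with PT2385 and 9.39 against 0.0346 FPKM with vehicle, and at 1% pO2 20.7 FPKM with PT2385 and 18.2 FPKM with vehicle. Islr, a secreted marker of stromal cells, had 0.0788 against 9.84 FPKM with PT2385 and 0.104 against 15.5 FPKM with vehicle. Rxfp1, the relaxin receptor, had 0.06998 against 9.13 FPKM with PT2385 and 0.185 against 9.596 FPKM with vehicle. These genes were picked for levels of at most 0.2 FPKM at 1 level and at least 5 FPKM at the other. Their separation therefore follows from the choice.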
